A study of Homo sapiens with 9 samples.

Results

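The genes described here are 50 writers, erasers and readers of histone acetylation, measured by RNA-seq in hTERT_RPE1 cells, an established human line derived from retinal pigment epithelium and immortalised with telomerase. They were taken by their symbols from a table of 26475 genes, in which all 50 were found, and they divide into 18 erasers, 13 writers and 19 readers, scaffolds and complex subunits. The comparison addresses how a soft substrate and the loss of PIP4K2B, a lipid kinase that uses PtdIns5P, each relate to the level of this machinery. All cells carried a lentiviral pLKO vector and were collected 24 h after seeding on a surface coated with fibronectin. The 3 conditions had 3 libraries each. Control cells carried the empty vector on glass, sh_PIP4K2B cells carried a hairpin against PIP4K2B on glass (hairpin #1, #2 or #3, with 1 library each), and Soft cells carried the empty vector on a 2.3 kPa hydrogel. The titles of the Control and Soft samples name an empty vector while their treatment label names a control shRNA, and the methods of the study name the empty vector for both. The labels do not say that the replicates were separate cultures, and the p-values then measure only the spread between these libraries, which may be technical. The libraries of sh_PIP4K2B differ in their hairpin, and the substrate was changed in Soft without a change of vector.

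Acetylation of lysines in histone tails neutralises their positive charge, loosens the contact between histones and DNA and marks active promoters and enhancers. Acetyltransferases place the mark with acetyl-CoA, zinc-dependent histone deacetylases and NAD-dependent sirtuins remove it, and proteins with bromodomains bind it. Most of these enzymes work inside large complexes such as NuRD, Sin3 and CoREST for removal and the MYST and p300/CBP assemblies for placement, so scaffolds and ING family subunits, which read methylated histone H3 with a PHD finger, are part of the same machinery.

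The libraries held between 19217336 and 24020796 counts. Levels are CPM, counts scaled to the same total in every library with TMM factors, and a gene was called when its adjusted p in edgeR's quasi-likelihood test was below 0.01. For the cell type markers and the cell cycle lists, levels and sums are CPM by library total, without TMM factors. PIP4K2B itself, the targeted gene, had 123.1, 123.7 and 119.5 CPM in Control and 48.4, 40.9 and 36.6 CPM in the libraries of hairpins #1, #2 and #3 (log2 fold change -1.54, SE 0.12, adjusted p = 3.8e-04, edgeR). In Soft it had 119.0, 122 and 127 CPM. The hairpin libraries differed more from each other than the other libraries did. The median SD of a member on the log2 scale was 0.0607 for Control, 0.0644 for Soft and 0.259 for sh_PIP4K2B, where all 13784 genes tested gave 0.0807, 0.0733 and 0.356. Of 11 marker genes of retinal pigment epithelium, 8 were below 1 CPM in every library, RPE65 and TTR among them, while MITF, OTX2 and RDH5 were present. The cytoskeleton genes KRT8, KRT18 and VIM were present in every library. Of 12 markers of other cell types, 11 were below 1 CPM in every library, the endothelial PECAM1 reached 5.47 CPM, and the sum over this list was 6.89 to 8.11 CPM in Soft, where Control libraries had 0.975 to 1.46 CPM and hairpin libraries 0.714 to 1.67 CPM. In bulk RNA, fewer cells of a type and less RNA per cell cannot be told apart.

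In Control cells the machinery spanned a wide range of levels. Per kilobase of the canonical transcript, which allows genes to be compared, the nuclear and cytoplasmic acetyltransferase HAT1 (48.02 ± 3.91 CPM per kb, mean ± SD, n = 3), the BET reader BRD2 (45.3 ± 0.971), the class I deacetylase HDAC1 (43.3 ± 1.37), the NuRD remodeller CHD4 (42.3 ± 1.02) and the NuRD subunit MTA2 (42.1 ± 1.70) were highest. HDAC1, CHD4 and MTA2 differed from each other by less than the spread between replicates. The lowest were SIRT4 (0.382 ± 0.134 CPM per kb), HDAC4 (1.30 ± 0.114), NCOA2 (1.51 ± 0.114) and HDAC9 (1.81 ± 0.0980). In Soft cells CHD4 (67.3 ± 1.43 CPM per kb) led, followed by BRD2 (60.1 ± 1.59), CHD3 (53.1 ± 1.11) and HDAC1 (52.3 ± 2.498), and HAT1 stood at 23.9 ± 1.95 CPM per kb.

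On the soft substrate 15 of the 50 members were called higher and 1 was called lower, with 34 not called. Over all 13784 genes tested the same call was made for 15.8% in the higher and 14.8% in the lower direction, 30.6% in either, so the members' count of 16 in either direction lay near that of all genes while 15 of the 16 were higher. Without hairpin #1 or #2 in the fit, 31 or 25 members were called in Soft in place of 16. All genes called in these fits were 6373 or 5160 in place of 4217. The higher members were the deacetylases HDAC5, HDAC6, HDAC8 and HDAC10, the mitochondrial sirtuins SIRT3 and SIRT4, the MYST acetyltransferases KAT6B, KAT7 and KAT8, the BET reader BRD3, the ING subunit ING4, the scaffold SIN3A and the NuRD subunits CHD3, CHD4 and MTA3. The lower member was HAT1. Fold changes of these higher members ran from 1.37-fold for KAT7 to 3.82-fold for ING4. The median log2 fold change of the members was 0.43, against 0.01 over all genes tested, and 40 of the 50 were above 0. With scaling by library size only, 19 members were called higher and 1 lower, and of all genes 2484 were called higher and 1468 lower in place of 2181 and 2036.

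With the PIP4K2B hairpins 2 members were called higher, SIRT3 and ING4, and 1 was called lower, HDAC11, with 47 not called. Over all genes tested 2.76% were called higher and 2.77% lower, 5.54% in either direction, and the members' share was near this. The members' median log2 fold change was 0.22, against 0.05 over all genes, and 41 of 50 were above 0. Each of these 3 calls was lost whichever Control or Soft library was left out. Without hairpin #1, #2 or #3 the count of members called was 9, 9 and 5 in place of 3. All genes called in the same fits were 1660, 2013 and 1770 in place of 763. In edgeR's fit of Control and sh_PIP4K2B alone 0 members and 5 of all genes were called. DESeq2 over all 9 libraries called 10 members and 1996 of all genes.

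**Figure D1:**
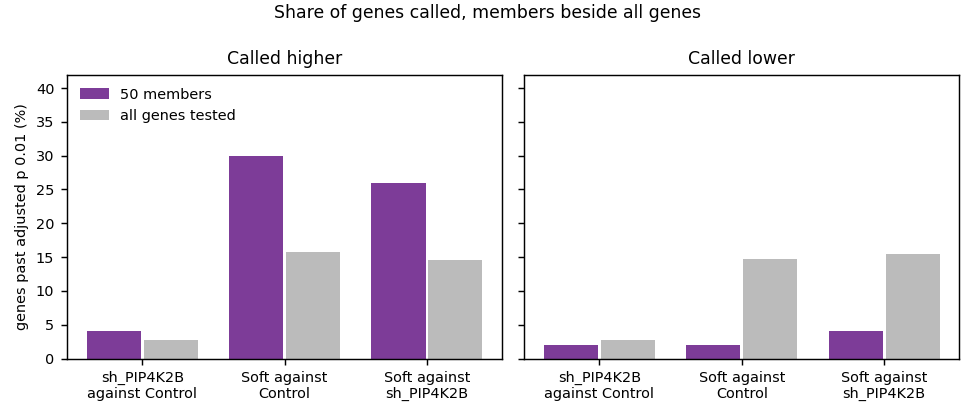
Share of genes called by edgeR at an adjusted p below 0.01 (vertical axis, percent) among the 50 members (purple) and all 13784 genes tested (grey), in the higher (left) and lower direction (right), for each of the 3 comparisons. In Soft against Control 15 of 50 members were called higher and 1 lower, beside 15.8% and 14.8% of all genes.

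Libraries of the compared conditions overlapped for few members on the soft substrate. All 3 Soft libraries lay above all 3 Control libraries for 38 members and below them for 7, with 5 overlapping. Among all genes tested 40.4% lay wholly above and 39.1% wholly below. For the hairpins 21 members lay wholly above Control, 2 wholly below (HDAC11 and SIRT2) and 27 overlapped, where all genes gave 17.4% above and 16.7% below. When Soft and Control were fitted without the hairpin libraries, 34 members passed the threshold in the higher and 6 in the lower direction, beside 35.5% and 35.2% of the genes tested in that fit. Members given below as not called in Soft are so in the fit of all 9 libraries.

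**Figure D2:**
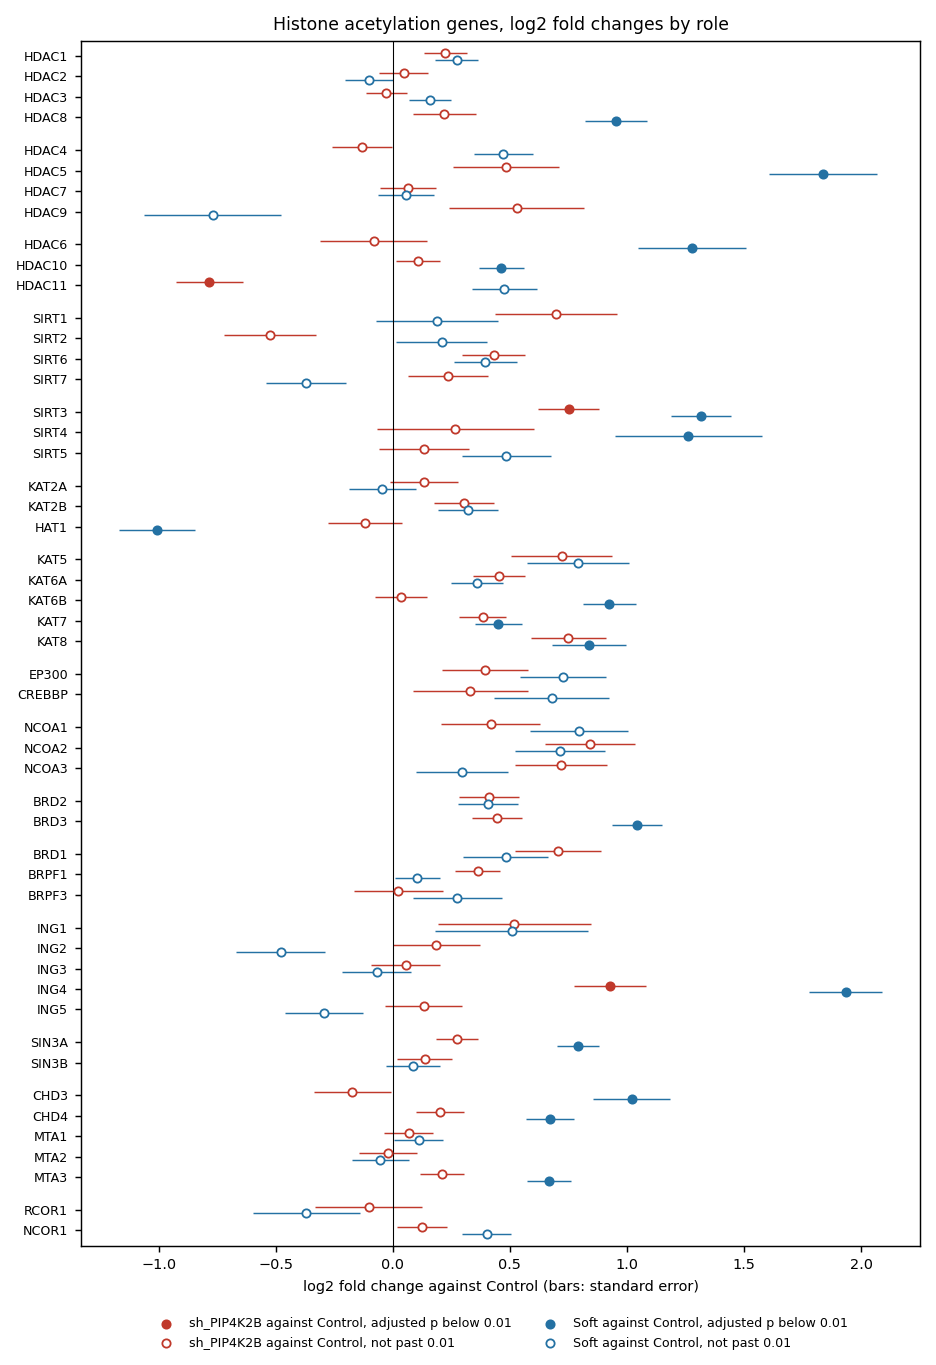
Log2 fold change against Control (horizontal axis) with its standard error for each of the 50 members, grouped by role, for sh_PIP4K2B (red) and Soft (blue). Filled points passed an adjusted p of 0.01 in edgeR, 3 in sh_PIP4K2B and 16 in Soft, and the highest Soft values are those of ING4 (1.93) and HDAC5 (1.84).

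Promoter sequence is given for 3 members, ING4 because it had the largest Soft change and a call in both comparisons, HDAC11 because it was the member called lower with the hairpins, and HAT1 because it was the member called lower in Soft. RefSeq start sites of GRCh38.p14 gave windows for 44 of the 50 members. The stretches shown are the parts of the 250 bases before the start that lie outside annotated exons, written 5′ to 3′ on the strand of the gene, and capitals mark motif matches on either strand. The ING4 stretch is chr12:6663143-6663259, minus strand, that of HDAC11 is chr3:13480117-13480214, plus strand and that of HAT1 is chr2:171922211-171922447, plus strand.
ING4: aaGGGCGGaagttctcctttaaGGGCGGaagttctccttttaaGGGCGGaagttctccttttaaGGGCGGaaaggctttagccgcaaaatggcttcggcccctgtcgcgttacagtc
HDAC11: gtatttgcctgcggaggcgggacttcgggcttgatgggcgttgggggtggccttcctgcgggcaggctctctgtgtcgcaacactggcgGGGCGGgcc
HAT1: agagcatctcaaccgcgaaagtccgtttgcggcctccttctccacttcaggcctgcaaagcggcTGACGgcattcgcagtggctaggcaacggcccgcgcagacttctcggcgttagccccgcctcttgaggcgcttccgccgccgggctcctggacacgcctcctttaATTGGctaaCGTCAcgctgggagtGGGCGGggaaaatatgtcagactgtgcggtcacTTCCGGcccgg
The ING4 stretch holds 4 GC boxes in a repeat, that of HDAC11 holds 1, and that of HAT1 holds 1 GC box, 1 CCAAT box, 1 ETS core and 2 cores of the cAMP response element.

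The motifs searched, on both strands, were the GC box (GGGCGG), the CCAAT box (CCAAT), the ETS core (CCGGAA), the cAMP response element (TGACGTCA) and its core (TGACG, which the full element contains), the E-box (CACGTG), an E2F core (GCGGGAA), the TATA box (TATAAA), a TEAD core (GGAATG) and a FOXO core (GTAAACA). Over whole 250-base windows a GC box was present in 42.6% of 35093 windows, in 62.4% of 15008 windows of tested genes and in 59.2% of 76 windows of members. In the same order, the CCAAT box was in 32.0%, 32.7% and 25%, the ETS core in 14.5%, 22.2% and 25%, the core of the cAMP response element in 21.2%, 27.3% and 26.3%, and the TATA box in 10.7%, 5.97% and 6.58%. The member shares of the ETS core, the core of the cAMP response element and the TATA box lay near those of tested genes. For tested genes and members, the E2F core was in 7.98% and 11.8%, the E-box in 7.98% and 3.95% and the TEAD core in 9.95% and 7.89%. These 3 motifs were in 9, 3 and 6 member windows. The full cAMP response element was in 2.44% and 1.32% and the FOXO core in 2.16% and 1.32%. A match is a description of these letters only, and the shown stretches are shorter than the windows behind these shares.

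Among the erasers, 6 of 18 were called higher on the soft substrate and none lower, with a median log2 fold change of 0.43. Of all genes tested 15.8% were called higher and 14.8% lower. The class IIa enzyme HDAC5 (GRCh38 chr17:44076753-44123641, minus strand), a deacetylase that shuttles between nucleus and cytoplasm and represses MEF2 target genes, had the largest change. It was at 21.6, 22.03 and 19.4 CPM in Control, 22.9, 22.3 and 42.7 CPM with hairpins #1, #2 and #3, and 73.5, 76.9 and 74.7 CPM in Soft. The Soft libraries were far above all others, and hairpin #3 stood apart from the other hairpins. In Soft HDAC5 rose 3.57-fold (log2 fold change 1.84, SE 0.23, adjusted p = 2.5e-04, edgeR), and with the hairpins its difference did not pass (log2 fold change 0.48, SE 0.23, adjusted p = 0.17, edgeR).

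No other class IIa gene was called against Control. HDAC7, the most abundant of the class per kilobase, was at 137 ± 5.68 CPM in Control and 143 ± 1.67 CPM in Soft (means ± SD, n = 3), and it was not called (adjusted p = 0.73, edgeR). HDAC9 was at 18.1, 16.8 and 18.7 CPM in Control, 19.4, 17.8 and 40.1 CPM with the 3 hairpins and 8.39, 12.3 and 10.7 CPM in Soft, with its highest value in hairpin #3 and its lowest in the Soft libraries. Neither comparison of HDAC9 with Control passed (0.23 for the hairpins and 0.055 for Soft, adjusted p in edgeR). In the fit of Soft and Control alone the Soft change of HDAC9 passed (adjusted p = 9.8e-06, edgeR). HDAC4 was at 10.98 ± 0.964 CPM in Control and 15.2 ± 1.17 CPM in Soft, an adjusted p of 0.013 in edgeR. Per kilobase, HDAC5 made up 9.95% ± 0.633 of the class IIa transcripts in Control, 12.4% ± 2.24 in sh_PIP4K2B and 27.7% ± 0.220 in Soft (SD, n = 3), and HDAC7 went from 82.2% to 66.7% between Control and Soft.

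**Figure D3:**
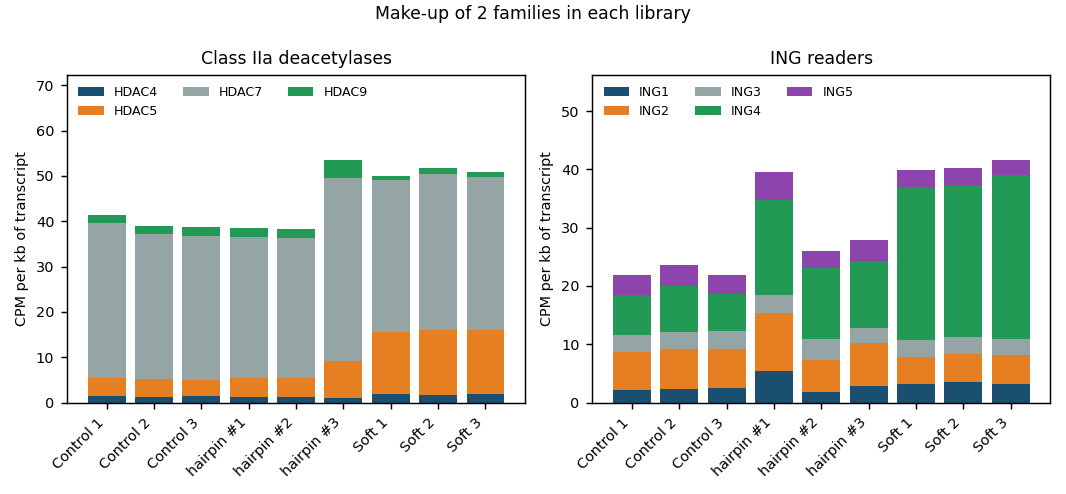
CPM per kb of canonical transcript (vertical axis) in each of the 9 libraries, stacked by gene, for the class IIa deacetylases (left) and the ING readers (right). The orange HDAC5 segment and the green ING4 segment are largest in the 3 Soft libraries, where they make up 27.7% and 66.0% of their family on average.

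In class I, 1 of the 4 members was called, HDAC8 in Soft. HDAC1, HDAC2 and HDAC3 of this class are the catalytic subunits of nuclear corepressor complexes. HDAC8 (chrX:72329516-72572843, minus strand), the class I enzyme that deacetylates cohesin, was at 13.7, 13.8 and 15.2 CPM in Control, 16.7, 19.1 and 14.1 CPM with the hairpins and 25.6, 28.95 and 28.3 CPM in Soft. Every Soft library was above every other library, and the hairpin libraries overlapped Control. Its Soft change was 1.94-fold (log2 fold change 0.95, SE 0.13, adjusted p = 4.4e-04, edgeR). HDAC1, HDAC2 and HDAC3 were not called, with log2 fold changes of 0.27, -0.10 and 0.16 in Soft and 0.22, 0.05 and -0.03 with the hairpins. In the fit of Soft and Control alone HDAC1 passed (adjusted p = 7.8e-05, edgeR), and HDAC2 and HDAC3 did not. HDAC3 averaged 50.2 ± 0.0642 CPM in Control (SD, n = 3), 49.2 ± 2.08 CPM over the hairpins and 55.99 ± 2.47 CPM in Soft.

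HDAC6 (chrX:48802067-48824976, plus strand), a cytoplasmic class IIb deacetylase of tubulin, was at 23.6, 22.95 and 21.8 CPM in Control, 25.3, 26.4 and 12.8 CPM with hairpins #1, #2 and #3, and 52.2, 58.4 and 55.2 CPM in Soft. The Soft libraries were the highest, hairpins #1 and #2 were slightly above Control and hairpin #3 was below it. HDAC6 rose 2.43-fold in Soft (log2 fold change 1.28, SE 0.23, adjusted p = 0.0017, edgeR), with an adjusted p of 0.011 without Control replicate 3. HDAC10, a class IIb enzyme that deacetylates polyamines, was at 16.4 ± 0.545 CPM in Control and 22.6 ± 0.418 CPM in Soft (log2 fold change 0.46, SE 0.10, adjusted p = 0.0035, edgeR), a call lost whichever Control or Soft library was left out, with an adjusted p of up to 0.022.

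HDAC11 (chr3:13480306-13506416, plus strand), the only class IV deacetylase and an enzyme that removes long fatty acyl groups, was the 1 member called lower with the hairpins. It was at 10.1, 9.52 and 8.56 CPM in Control, 5.02, 6.26 and 5.09 CPM with hairpins #1, #2 and #3, and 14.2, 12.3 and 12.7 CPM in Soft. The 3 groups did not overlap, with the hairpins lowest and Soft highest. It fell with the hairpins (log2 fold change -0.78, SE 0.14, adjusted p = 0.0076, edgeR), and its Soft value did not pass against Control (log2 fold change 0.48, SE 0.14, adjusted p = 0.019, edgeR). The hairpin call passed in 7 of 16 alternatives, with an adjusted p of 0.0535 in edgeR's fit of Control and sh_PIP4K2B alone. The direct difference between Soft and sh_PIP4K2B was 2.39-fold (log2 fold change 1.26, SE 0.14, adjusted p = 1.7e-04, edgeR).

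Among the sirtuins, 2 of the 3 mitochondrial members were called. Over all genes tested 30.6% were called in Soft and 5.54% with the hairpins. SIRT3 (chr11:215030-236342, minus strand), the main mitochondrial deacetylase, was at 7.08, 8.43 and 7.78 CPM in Control, 14.8, 12.1 and 12.3 CPM with hairpins #1, #2 and #3, and 18.9, 19.9 and 19.4 CPM in Soft. The groups were fully separated, with the hairpins between Control and Soft. SIRT3 rose 1.68-fold with the hairpins (log2 fold change 0.75, SE 0.13, adjusted p = 0.0056, edgeR) and 2.49-fold in Soft (log2 fold change 1.32, SE 0.13, adjusted p = 6.6e-05, edgeR). Its hairpin call was lost whichever Control or Soft library was left out. SIRT4, which acts on mitochondrial enzymes, was the lowest member of all at 0.652, 0.395 and 0.350 CPM in Control and 1.28, 1.14 and 0.939 CPM in Soft (log2 fold change 1.26, SE 0.31, adjusted p = 0.0093, edgeR). Its adjusted p reached 0.049 when single libraries or the test were changed, and it passed without Control replicate 1, hairpin #1 or hairpin #3 but not without any other single library. SIRT5, the mitochondrial desuccinylase, was not called at 8.92 ± 0.546 CPM in Control and 12.5 ± 0.0712 CPM in Soft.

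None of the 4 nuclear and cytoplasmic sirtuins was called in either comparison with Control, and single hairpins set the widest values among them. SIRT1, which deacetylates p53 and histones, averaged 27.7 ± 1.26 CPM in Control, and the libraries of hairpins #1, #2 and #3 had 68.97, 31.6 and 33.96 CPM (log2 fold change 0.70, SE 0.26, adjusted p = 0.095, edgeR). SIRT2, a tubulin deacetylase, was at 17.8, 30.9 and 32.5 CPM against 38.9 ± 0.691 CPM (log2 fold change -0.52, SE 0.20, adjusted p = 0.096, edgeR). Hairpin #1 was thus the highest library for SIRT1 and the lowest for SIRT2. SIRT6 and SIRT7, which act on chromatin, had Soft log2 fold changes of 0.39 and -0.37 with adjusted p of 0.037 and 0.11 in edgeR.

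**Figure D4:**
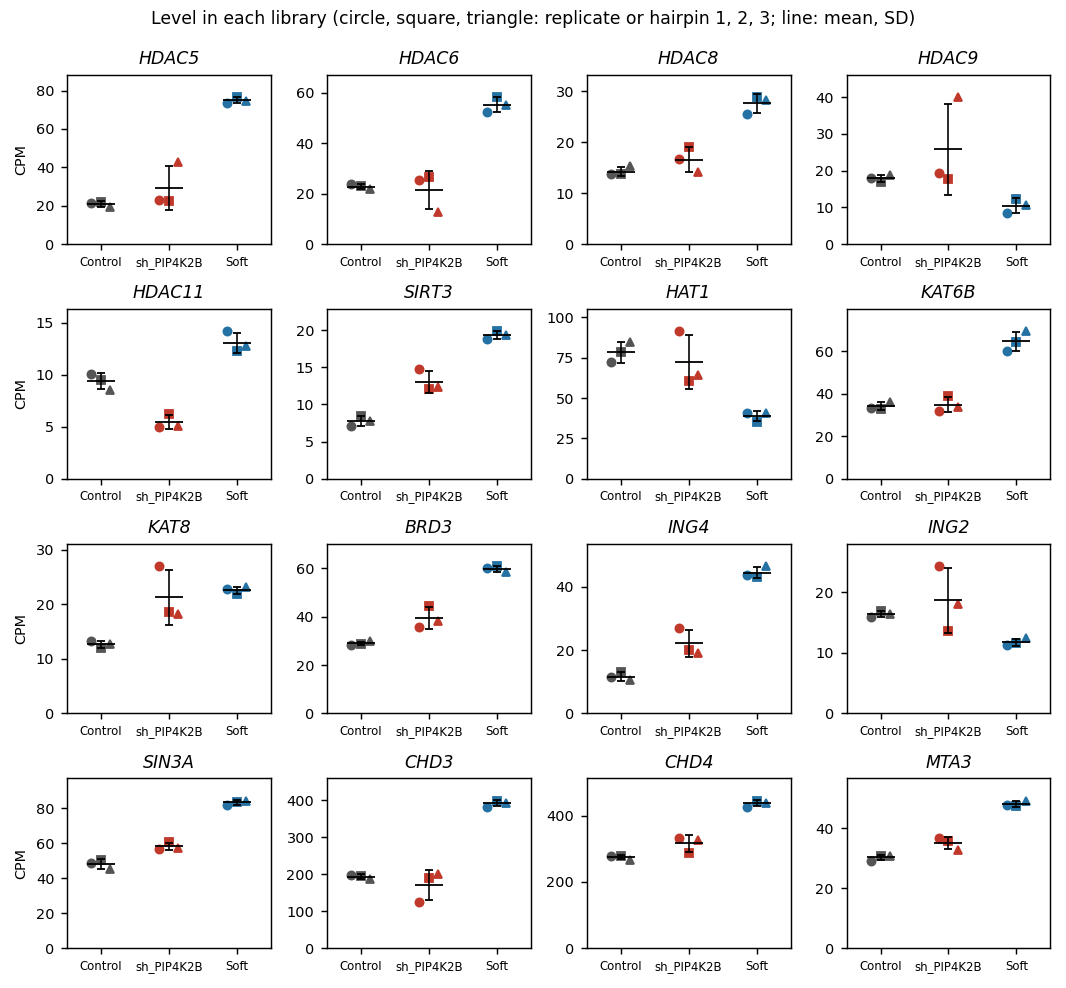
TMM-scaled CPM (vertical axes, from 0) of 16 members in each library, with the mean and SD of each condition as a black line and bar and the replicate or hairpin number as the marker shape. The Soft points of HDAC5, HDAC6, CHD3 and ING4 lie above every other library, HAT1 is lowest in Soft, and hairpin #3 (triangle) stands apart for HDAC5, HDAC6 and HDAC9.

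Of the 13 writers, 3 were called higher and 1 lower on the soft substrate, with a median log2 fold change of 0.68, and none was called with the hairpins, where the median was 0.39. Of all genes tested 15.8% were called higher and 14.8% lower in Soft, and 5.54% in either direction with the hairpins. HAT1 (chr2:171922461-171983686, plus strand) acetylates newly made histones before they are placed on DNA. It was at 72.1, 78.4 and 84.9 CPM in Control, 91.4, 60.7 and 64.6 CPM with hairpins #1, #2 and #3, and 40.7, 35.3 and 40.99 CPM in Soft. The Soft libraries were the lowest, and the hairpins straddled Control, with hairpin #1 above it and hairpins #2 and #3 below. HAT1 fell to 0.497 of Control in Soft (log2 fold change -1.01, SE 0.16, adjusted p = 9.3e-04, edgeR), while the hairpins gave -0.12 (SE 0.16, adjusted p = 0.64, edgeR).

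Genes of DNA replication were lower in both conditions, while HAT1 was called in Soft only. The summed level of a list of 20 S phase genes ran from 2048 to 2054 CPM in Control, from 1294 to 1405 CPM over the hairpins and from 1278 to 1347 CPM in Soft, and 13 of the 20 were called lower with the hairpins and 15 in Soft. A list of 20 G2/M genes summed to between 1975 and 2056 CPM in Control, between 1053 and 1219 CPM over the hairpins and between 1852 and 1958 CPM in Soft, with 18 and 5 called lower. These sums lack the TMM factors, which were 0.952 to 0.962 in Control, 0.926 to 1.076 over the hairpins and 1.026 to 1.034 in Soft. Dividing by these factors would raise Control relative to Soft. The part of the cell cycle in the change of HAT1 or of other members was not tested.

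The MYST family, named after its founding members and active on histones H3 and H4, had 3 of its 5 genes called higher in Soft, and all 5 had Soft libraries wholly above Control. Among all genes tested 15.8% were called higher in Soft and 40.4% lay wholly above Control. KAT6B (chr10:74826600-75032624, plus strand), which works with the BRPF scaffolds, was at 33.4, 32.6 and 36.2 CPM in Control, 31.9, 38.9 and 33.8 CPM with the hairpins and 60.2, 64.3 and 69.4 CPM in Soft. The hairpins overlapped Control, and the change was seen in the Soft libraries (1.90-fold, log2 fold change 0.92, SE 0.11, adjusted p = 2.1e-04, edgeR). KAT8, the catalytic subunit of the MSL and NSL complexes, was at 13.3, 11.98 and 12.7 CPM in Control, 27.03, 18.6 and 18.1 CPM with the hairpins and 22.8, 21.9 and 23.1 CPM in Soft. Both groups lay above Control, Soft passed (log2 fold change 0.84, SE 0.16, adjusted p = 0.0023, edgeR) and the hairpins did not (log2 fold change 0.75, SE 0.16, adjusted p = 0.014, edgeR). Without Control replicate 2 or 3 or Soft replicate 1 or 3 the Soft call for KAT8 was lost, with an adjusted p of up to 0.015. KAT7, which is linked to the licensing of replication origins, was at 35.8 ± 1.55 CPM in Control and 48.97 ± 1.67 CPM in Soft (log2 fold change 0.45, SE 0.10, adjusted p = 0.0054, edgeR), a call lost whichever Control or Soft library was left out (adjusted p up to 0.034). KAT5, the catalytic subunit of the TIP60 complex, was at 73.9, 38.4 and 42.96 CPM with the hairpins and 54.4 ± 2.43 CPM in Soft against 31.4 ± 1.46 CPM in Control, and neither difference passed (adjusted p of 0.049 and 0.014, edgeR). KAT6A had log2 fold changes of 0.45 and 0.36, with adjusted p of 0.025 and 0.025 in edgeR.

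The coactivators EP300 and CREBBP, closely related acetyltransferases of enhancers, were not called in Soft, with EP300 just outside the threshold. EP300 was at 57.4 ± 1.63 CPM in Control, 53.1, 76.1 and 96.7 CPM with hairpins #1, #2 and #3, and 94.9 ± 4.77 CPM in Soft (log2 fold change 0.73, SE 0.18, adjusted p = 0.010, edgeR). CREBBP was at 59.8 ± 1.90 CPM in Control, 42.5, 88.3 and 94.7 CPM with the hairpins and 95.6 ± 5.15 CPM in Soft (log2 fold change 0.68, SE 0.25, adjusted p = 0.046, edgeR). In the fit of Soft and Control alone EP300 and CREBBP passed (adjusted p of 2.1e-09 and 6.7e-09, edgeR). For both genes hairpin #1 was below Control while hairpins #2 and #3 were above it. The p160 coactivators NCOA1, NCOA2 and NCOA3 had Soft log2 fold changes of 0.79, 0.71 and 0.29 and hairpin values of 0.42, 0.84 and 0.72, none past 0.01. KAT2A and KAT2B, the GNAT enzymes of SAGA-type complexes, were not called, with Soft log2 fold changes of -0.04 and 0.32.

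Among the 19 readers, scaffolds and complex subunits, 6 were called higher in Soft and none lower, with a median log2 fold change of 0.40, and 1 was called higher with the hairpins. Of all genes tested 15.8% were called higher and 14.8% lower in Soft, and 2.76% were called higher with the hairpins. ING4 (chr12:6650301-6663119, minus strand), the PHD finger subunit of the KAT7 complex, had the largest Soft change of any member. It was at 11.5, 12.99 and 10.4 CPM in Control, 27.1, 20.1 and 19.1 CPM with hairpins #1, #2 and #3, and 43.6, 43.2 and 46.6 CPM in Soft. All 3 groups were separated, with each hairpin above Control and each Soft library above each hairpin. ING4 rose 1.90-fold with the hairpins (log2 fold change 0.93, SE 0.15, adjusted p = 0.0048, edgeR) and 3.82-fold in Soft (log2 fold change 1.93, SE 0.16, adjusted p = 2.5e-05, edgeR), and Soft exceeded the hairpins 2.01-fold (log2 fold change 1.01, SE 0.15, adjusted p = 6.6e-04, edgeR). Its hairpin call passed in 8 of 16 alternatives, with an adjusted p of 0.041 in edgeR's fit of Control and sh_PIP4K2B alone.

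ING2 (chr4:183505058-183512429, plus strand), the Sin3 subunit whose PHD finger also binds PtdIns5P, the substrate of PIP4K2B, was at 15.9, 16.9 and 16.3 CPM in Control, 24.3, 13.5 and 18.1 CPM with hairpins #1, #2 and #3, and 11.3, 11.6 and 12.4 CPM in Soft. The Soft libraries were all below Control, and the hairpins lay on both sides of it. Neither difference passed (hairpins: log2 fold change 0.19, adjusted p = 0.52, Soft: -0.48, adjusted p = 0.063, edgeR). The Soft difference of ING2 did pass in the fit of Soft and Control alone (adjusted p = 3.5e-05, edgeR), where 35.2% of all genes were called lower. ING1, ING3 and ING5 were not called, with Soft log2 fold changes of 0.51, -0.07 and -0.29. Per kilobase, ING4 made up 31.1% ± 2.30 of the ING transcripts in Control, 43.0% ± 3.05 in sh_PIP4K2B and 66.0% ± 1.30 in Soft (SD, n = 3), and ING2 went from 29.7% to 11.8% between Control and Soft. The mean sum behind these shares went from 22.5 to 40.6 CPM per kb between Control and Soft, and ING2 itself from 6.67 to 4.78.

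The BET reader BRD3 (chr9:134030305-134068026, minus strand), which binds acetylated histones and GATA1 with paired bromodomains, was at 28.5, 28.8 and 29.8 CPM in Control, 35.7, 44.6 and 38.3 CPM with the hairpins and 59.97, 61.00 and 58.5 CPM in Soft. The 3 groups did not overlap. It rose in Soft (2.06-fold, log2 fold change 1.04, SE 0.11, adjusted p = 8.6e-05, edgeR), and with the hairpins it did not pass (log2 fold change 0.45, SE 0.11, adjusted p = 0.021, edgeR). BRD2, its more abundant paralogue, had a log2 fold change of 0.41 with the hairpins and 0.41 in Soft, with adjusted p of 0.056 and 0.027 in edgeR. In the fit of Soft and Control alone BRD2 passed (adjusted p = 9.4e-08, edgeR). The MYST scaffolds BRD1, BRPF1 and BRPF3 were not called, with Soft values of 0.48, 0.10 and 0.28 and hairpin values of 0.71, 0.36 and 0.02.

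In NuRD, which joins a chromatin remodeller to HDAC1 and HDAC2, both remodellers were higher in Soft. CHD3 (chr17:7888789-7912755, plus strand) was at 198, 195 and 186 CPM in Control, 125, 189 and 200.1 CPM with hairpins #1, #2 and #3, and 383, 399 and 394 CPM in Soft. The Soft libraries were far above all others, and hairpin #1 was the lowest library. CHD3 rose 2.03-fold (log2 fold change 1.02, SE 0.16, adjusted p = 9.7e-04, edgeR). CHD4 was at 274 ± 6.65 CPM in Control, 316 ± 25.7 CPM with the hairpins and 437 ± 9.29 CPM in Soft (log2 fold change 0.67, SE 0.10, adjusted p = 7.3e-04, edgeR). The subunit MTA3 went from 30.3 ± 0.918 CPM to 48.1 ± 1.01 CPM in Soft (log2 fold change 0.67, SE 0.09, adjusted p = 4.5e-04, edgeR), while its paralogues MTA1 and MTA2, which are the more abundant, had log2 fold changes of 0.11 and -0.05. CHD3 made up 38.2% ± 0.249 of the CHD3 and CHD4 transcripts per kilobase in Control, 32.2% ± 6.47 in sh_PIP4K2B and 44.1% ± 0.0167 in Soft (SD, n = 3).

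SIN3A (chr15:75369379-75451690, minus strand), the scaffold of the Sin3 complex, was at 48.6, 50.6 and 45.3 CPM in Control, 56.9, 60.5 and 57.4 CPM with the hairpins and 81.7, 83.8 and 84.3 CPM in Soft. The groups were separated in the same order as for BRD3, and only the Soft difference passed (log2 fold change 0.79, SE 0.09, adjusted p = 1.4e-04, edgeR). On the log2 scale its paralogue SIN3B differed by 0.09 in Soft and was not called. The corepressors NCOR1 and RCOR1, scaffolds of the HDAC3 complex and of CoREST, had Soft log2 fold changes of 0.40 (adjusted p = 0.012) and -0.37 (adjusted p = 0.21, edgeR), and RCOR1 ran from 77.4, 46.1 and 36.6 CPM over hairpins #1, #2 and #3.

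The counts of some members depend on how reads were shared between overlapping annotated genes. Of the 75-base stretches of the canonical transcript, 87.7% in CHD4, 71.3% in HDAC10, 66.6% in HDAC8 and 11.0% in KAT2A also occur in a transcript of another annotated gene, which for HDAC10 is MAPK12. For 44 of the 50 members the share was under 1%. The levels of these 4 genes are therefore uncertain.

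**Figure D5:**
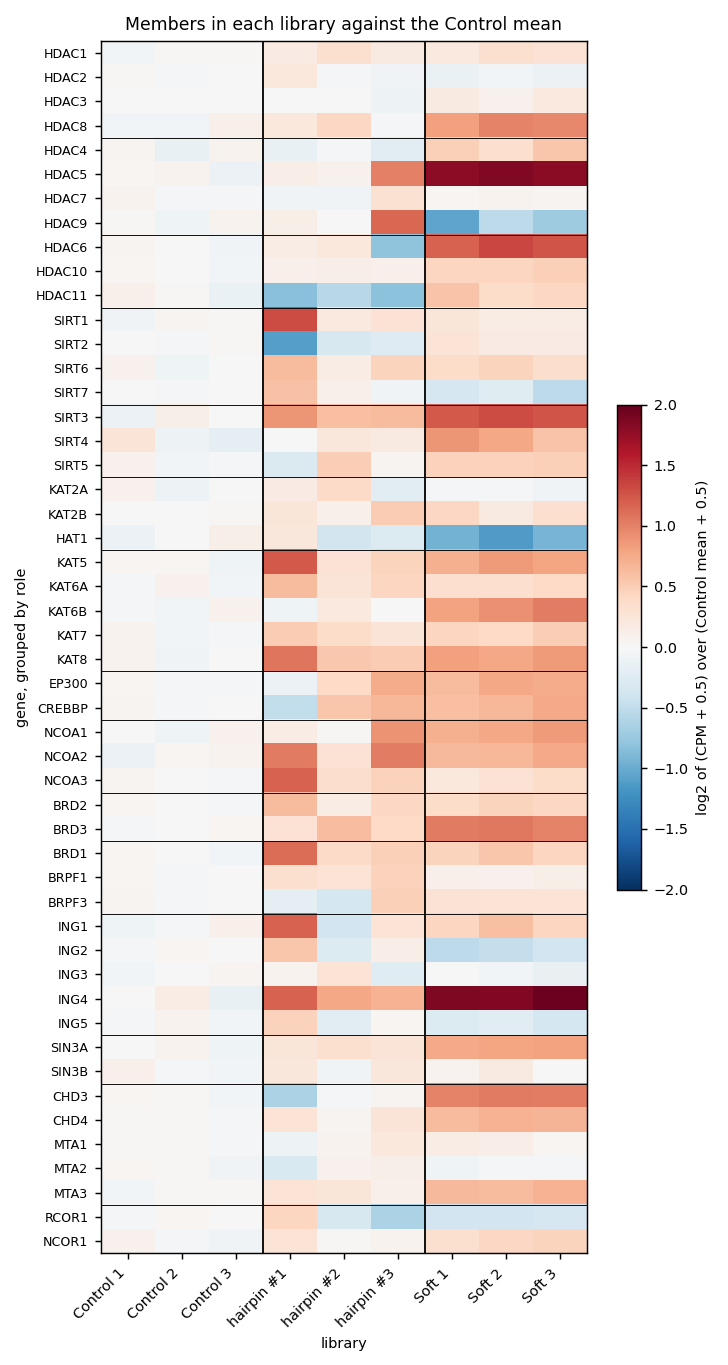
Log2 of the ratio of each library to the Control mean (colour, CPM plus 0.5 in both) for the 50 members (rows, grouped by role) in the 9 libraries (columns). The Soft columns resemble each other closely, while the hairpin columns differ, with hairpin #1 high for SIRT1, KAT5 and NCOA3 and hairpin #3 high for HDAC5 and HDAC9.

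Single hairpins differed in how many members they shifted. Over 1.5-fold from the Control mean, with 0.5 CPM added to both values, hairpin #1 had 13 members higher and 3 lower, hairpin #2 had 3 higher and none lower, and hairpin #3 had 8 higher and 3 lower. Over all genes tested the shares were 16.8% higher and 18.97% lower for hairpin #1, 8.68% and 9.45% for hairpin #2 and 14.9% and 11.3% for hairpin #3. With all 3 hairpins in the same direction, 2 members were over 1.5-fold higher, SIRT3 and ING4, and none was lower. Without the added 0.5 CPM, HDAC11 was also over 1.5-fold lower with every hairpin, at 53.4%, 66.6% and 54.2% of the Control mean. These single libraries have no replicate.

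The comparisons with Control share the Control libraries, so Soft and sh_PIP4K2B were also compared directly. Of the 50 members 13 were higher in Soft and 2 lower (HDAC9 and HAT1), where all genes gave 14.5% and 15.5%, 30% in either direction. Without Soft replicate 2 or 3 the members called were 7 or 8 in place of 15, and all genes called 2395 or 2350 in place of 4135. The higher members were HDAC4, HDAC5, HDAC6, HDAC8, HDAC11, SIRT3, KAT6B, BRD3, ING4, SIN3A, CHD3, CHD4 and MTA3. The largest differences were those of HDAC6 (log2 fold change 1.36, SE 0.23, adjusted p = 0.0013, edgeR), HDAC5 (log2 fold change 1.36, SE 0.23, adjusted p = 0.0012, edgeR) and, in the other direction, HDAC9 (log2 fold change -1.30, SE 0.29, adjusted p = 0.0060, edgeR). For KAT8 (log2 difference 0.09, SE 0.16) and KAT5 (0.07, SE 0.21) the difference was smaller than its standard error. Both values rested on hairpin #1, without which the difference was 0.41 for KAT5, which then passed (adjusted p = 0.0044, edgeR), and 0.29 for KAT8 (adjusted p = 0.021, edgeR). HDAC5, HDAC6, HDAC11, CHD3, ING4 and KAT6B passed whichever library was left out, and HDAC9 passed whichever hairpin was left out but lost its call whichever Control or Soft library was (adjusted p up to 0.029).

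Other genes of the same pathway were followed with 4 lists, of whose 128 genes 122 were tested. In Soft 21 of them were called higher and 12 lower, where all genes gave 15.8% and 14.8%, and the higher count was near that share. With the hairpins all genes gave 2.76% higher and 2.77% lower. Of 31 other deacetylase complex subunits, 7 were higher and 2 lower in Soft, and 2 were higher with the hairpins, with median log2 fold changes of 0.18 and 0.15. The largest Soft changes among them were those of the CoREST subunit PHF21A (log2 fold change 1.37, SE 0.11, adjusted p = 2.4e-05, edgeR), the NuRD subunit GATAD2B (1.07) and the Sin3 subunit SAP30L (1.05). Of 42 other acetyltransferase complex subunits, 6 were higher and 2 lower in Soft and 4 higher with the hairpins (medians 0.09 and 0.12), with the largest Soft changes in the SAGA subunits CCDC101, also named SGF29 (0.98), and TADA3 (0.82) and in the KAT7 complex scaffold JADE1 (-0.75).

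Of 31 other bromodomain and YEATS readers, 5 were higher and 5 lower in Soft and 1 was called in each direction with the hairpins (medians 0.07 and 0.18), so the Soft counts in both directions were near the shares over all genes. SP140, a reader of immune cells, fell from 10.03 ± 0.418 CPM to 2.35 ± 0.260 CPM in Soft (log2 fold change -2.09, SE 0.49, adjusted p = 0.0067, edgeR), ATAD2, a replication-linked reader, fell by 1.10 on the log2 scale in Soft and by 0.86 with the hairpins, and BAZ2B had a Soft value of 1.18. Of 18 genes that supply acetyl-CoA and NAD, 3 were higher and 3 lower in Soft and 1 was lower with the hairpins (medians -0.33 and -0.12). NAMPT, the rate-limiting enzyme of NAD salvage, went from 53.8 ± 4.69 CPM to 119 ± 14.4 CPM in Soft (log2 fold change 1.14, SE 0.23, adjusted p = 0.0029, edgeR). NMNAT3, a mitochondrial enzyme of NAD synthesis, had a Soft value of 1.56, and ACAT2, which uses acetyl-CoA, one of -1.04.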

How the data were processed

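RNA of 9 libraries (3 each of Control, sh_PIP4K2B and Soft) was analysed. The authors prepared stranded mRNA libraries, processed the reads with STAR and Salmon on GRCh38 (hg38), as their processing notes list, and deposited estimated counts for each gene and library, without scaling or pooling. Which tool assigned reads to genes and with which annotation is not given in the sources used here. Fractions occurred in 12.3% of the values, which were rounded before testing.

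Genes were tested in R 4.3.3 with edgeR 4.0.16 (TMM, filterByExpr, quasi-likelihood F test) in 1 fit of the 9 libraries with the condition as the only term, for 3 comparisons. Of 26475 genes 13784 passed the filter, all 50 members among them. P-values were adjusted over all genes tested (Benjamini-Hochberg), and calls were made below 0.01. Standard errors were derived from the F statistics. Library totals of 19217336 to 24020796 counts put a count of 3, a floor for detection, between 0.125 and 0.156 CPM. Such floors cover counting error only.

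The members and all gene lists were chosen with earlier results of these data known. Values in every library were given for ING2, ING4 and, within each role group, the largest changes past 0.01 in at least 1 comparison with Control. HDAC10, KAT7, CHD4 and MTA3 also passed and are given by mean and SD, and SIRT4 is given without the hairpin libraries. The remaining members are given by values or ranges. The HDAC9 libraries, the HDAC4 means and the hairpin libraries of SIRT1, SIRT2, EP300, CREBBP, KAT5 and RCOR1 were shown after their values were seen. In each of the 4 pathway lists the largest changes past 0.01 are named, at most 3. Transcript lengths, coordinates and shared 75-base stretches come from the GENCODE canonical transcripts of GRCh38, and promoter windows from RefSeq (GRCh38.p14). The fit was run on simulated counts with 100 genes changed 2-fold and 100 changed 1.5-fold in Soft. Of these 97 and 87 were called, with 2 false calls. All simulated libraries had the spread of Control and Soft, so the run cannot speak to calls under the hairpin libraries' larger spread. Alternatives were 2 other filters, 2 other scalings, DESeq2 1.42.0, a threshold of 0.05, a fit of 2 conditions, the replicate number as a block and leaving out each library.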

Additional observations from a re-analysis of the deposited data

Results flagged for a closer look

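For 5 members the fitted changes in Soft and in sh_PIP4K2B had opposite signs against Control, and the direct difference between the conditions passed an adjusted p of 0.01 in edgeR. The log2 differences, Soft minus sh_PIP4K2B, were 1.259 for HDAC11, 1.36 for HDAC6, 1.194 for CHD3, 0.604 for HDAC4 and -1.298 for HDAC9. For HDAC11 the 3 conditions did not overlap, and its value with the hairpins was called on its own. For HDAC6 and CHD3 only the Soft change against Control was called, and for HDAC4 and HDAC9 neither change was. In HDAC6 and HDAC9 hairpin #3 lay apart from the other hairpins, and in CHD3 hairpin #1 did. The differences of HDAC6 and HDAC9 without hairpin #3 were 1.08 and -0.84 on the log2 scale, and that of CHD3 without hairpin #1 was 1.00. The opposite signs of HDAC6 and CHD3 rested on these single libraries, since the hairpin change against Control went from -0.08 to 0.18 for HDAC6 without hairpin #3 and from -0.17 to 0.0083 for CHD3 without hairpin #1. The call for HDAC4 was lost whichever Soft library was left out (adjusted p up to 0.024, edgeR), and that for HDAC9 whichever Control or Soft library was left out.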

How the results depend on the processing

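No called member changed sign in any of 16 alternatives. In Soft 11 of the 16 calls passed in all of them (BRD3, SIRT3, SIN3A, MTA3, KAT6B, ING4, HDAC5, HDAC8, HAT1, CHD3 and CHD4), in Soft against sh_PIP4K2B 6 of 15, and with the hairpins 0 of 3. The counts of members called, 3 with the hairpins, 16 in Soft and 15 in Soft against sh_PIP4K2B, ran over leaving out each library from 0 to 9, 11 to 31 and 7 to 20. The same ranges over all genes were 66 to 2013, 2506 to 6373 and 2350 to 5374. At a threshold of 0.05 the members called were 12, 28 and 20 and all genes 2375, 6498 and 6372. In fits of only the conditions compared the members were 0, 40 and 6 and all genes 5, 9601 and 2183. DESeq2 called 10 members with the hairpins and 1996 of all genes. The cause of these shifts was not tested.

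The titles give the Control and Soft libraries the same vector numbers, and whether these mark shared transductions is not stated. Correlations of deviations between libraries of the same number ran from -0.115 to 0.0394, and those of different numbers from -0.0291 to 0.0726. With 3 libraries in a condition these values cannot show whether the samples were paired. With the replicate block the members called were 0 with the hairpins, 14 in Soft and 11 in Soft against sh_PIP4K2B. All genes called were 295, 3536 and 3366 in the same order. Scaling by library size only put the median log2 fold change of all genes at 0.141 with the hairpins and 0.119 in Soft, and the changes above are relative to a median near 0. Over all genes in Soft, 51.7% of the calls were higher, and 62.9% with that scaling. The 3 hairpins, each in 1 library, and the depth of SIRT4, near 1 CPM, limit the smaller differences.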
